A study of Mus musculus with 7 samples.

Results

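The genes examined were 10 subunits of Polycomb repressive complex 1 (PRC1) and of its opponent, the Polycomb repressive deubiquitinase (PR-DUB) of ASXL and BAP1 proteins. They were picked by gene symbol, as Ring1, Rnf2, Bmi1, Pcgf1, Cbx2, Cbx7, Cbx8, Bap1, Asxl1 and Asxl2, from the 48440 genes of an RNA-seq table of hematopoietic stem and progenitor cells. The study asked how transcription in these cells changes when PROSER1, a partner of the TET DNA demethylases, is lost. Unfractionated BM from wild-type mice or from mice with a constitutive, endonuclease-made PROSER1 knockout (KO) was transplanted into C57BL/6 recipients given a lethal dose of 9.5 Gy, with no further treatment of either group. At day 77, LSK cells (negative for lineage markers and positive for Sca1 and cKit, the fraction that holds HSCs and multipotent progenitors) were sorted from recipient BM, giving 4 wild-type and 3 PROSER1 KO libraries of polyadenylated RNA. The labels call the libraries biological replicates. The ages of the animals, whether several recipients were pooled, and whether the sort separated donor cells from surviving recipient cells are not given in the sources used here.

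PRC1 attaches ubiquitin to histone H2A at the genes it silences, through a RING ligase paired with a PCGF protein. The PCGF partners differ between types of complex. BMI1 is found in canonical complexes, in which a chromobox (CBX) protein binds methylated histone H3, though not only there. PCGF1 is found in a variant complex without a CBX subunit. PR-DUB removes the same ubiquitin through the protease BAP1, which needs an ASXL protein for its activity. In blood, BMI1 is known as a factor for HSC self-renewal that holds the INK4 locus silent, and ASXL1 is among the genes most often mutated in myeloid malignancy.

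The libraries held 33143619 to 45140743 read pairs on genes, and the values compared are normalised counts, that is, read pairs per gene divided by a size factor of each library. A normalised count of 1 stood for about 1 read pair, and a count of 0 allows up to 3 read pairs. Cells of an LSK sort should carry Kit, the cKit receptor, and Ly6a, which encodes Sca1. The normalised count of Kit ran from 25530 to 32360 over the 7 libraries, and that of Ly6a from 3961 to 6822. The 7 stem and progenitor markers summed to between 75300 and 85810, with Cd34 the most abundant. Among them, Mecom alone had groups without overlap, at 2683, 3030, 2772 and 2790 in wild-type libraries against 2160, 2610 and 2365 in those labelled PROSER1 KO. Its log2 fold change was −0.248 (unadjusted p = 0.00663, adjusted p = 0.2825 in limma). The adjusted p was 0.308 in edgeR and 0.0684 in DESeq2. Groups without overlap were seen in 10% of the 16251 genes tested, so nothing particular to Mecom is read from this.

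Markers of other cell types were also detected, although the sort was for cells negative for lineage markers, a gate meant to remove mature cells. Which cells these transcripts came from was not tested. The 8 plasma cell markers were all above 0 and summed to 296300, 244400, 172200 and 432100 in wild-type replicates 1 to 4, and to 223700, 201100 and 300800 in replicates 1 to 3 labelled PROSER1 KO. Jchain, the joining chain of secreted immunoglobulin, made up 89.1% of this sum. Wild-type replicate 4 stood highest and wild-type replicate 3 lowest, so that the wild-type libraries enclosed the others. The sum exceeded the Kit count in each library, and ordering the libraries by Ly6a gave the same order as by this sum except for the lowest 2. The 4 B cell markers summed to between 1597 and 3933, with Cd79a the most abundant, and the 4 T cell markers to between 217 and 796, where Cd4 had the highest mean although Trbc2 exceeded it in replicate 1 of each group (250 against 200 and 395 against 170). The 5 granulocyte and monocyte markers summed to between 997 and 3902 (highest mean, Ngp), and the 4 erythroid markers to between 127 and 250 (highest mean, Klf1). In such bulk RNA, fewer cells of a type and less RNA per cell cannot be told apart.

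Transcript of the targeted gene was not lower in the libraries labelled PROSER1 KO. The normalised count of Proser1 was 2019, 2153, 2103 and 2077 in the wild-type libraries and 2464, 2359 and 2338 in those labelled PROSER1 KO. All 3 of the latter lay above all wild-type libraries, with a log2 fold change of 0.19 (SE 0.0486, 95% interval 0.084 to 0.302), an unadjusted p of 0.00301 and an adjusted p of 0.204 in limma. The count covers the whole gene, and which exons the knockout removes is not given in the sources used here. The identity of the groups, and every direction below, therefore rests on the labels.

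None of the 10 members was called different between the groups at an adjusted p under 0.05 and a fold change above 1.5. This count of 0 came from limma, from edgeR and from DESeq2, against 0.258% and 0.246% of the 16251 tested genes called by limma and edgeR, and 0.873% of the 18903 genes with a DESeq2 adjusted p (162 of the 16251). At an unadjusted p under 0.05, limma gave 1 of the 10 members, where 9.73% of all 16251 tested genes passed, while edgeR gave 2 members (9.86% of all tested genes) and DESeq2 gave 1 (7.03% of all genes with a p, and 10.2% of those tested with limma). The limma count was 0 without wild-type replicate 1 or 2 or any 1 of the libraries labelled PROSER1 KO, and 2 without wild-type replicate 3. Groups without overlap in normalised count were seen in 2 members, with each library labelled PROSER1 KO below each wild-type library for Ring1 and above for Cbx8. Among all tested genes, 10% had groups without overlap, so nothing particular to the members is read from this count.

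The differences were small. The median log2 fold change over the members was −0.020, beside 0.0015 over all tested genes, and the members ran from −0.18 for Cbx7 to 0.20 for Cbx8. The median size of the change regardless of sign was 0.044 in the members, beside 0.095 in all tested genes and 0.063 in the 8595 genes whose mean lay between the lowest and the highest member. The spread between libraries of a group was also low, with a median SD of 0.072 on the log2 scale, beside 0.13 in all tested genes and 0.089 in those 8595. The 95% limma intervals of all 10 members lay inside a 1.5-fold change in either direction (0.58 on the log2 scale), the widest bounds being −0.42 for Cbx7 and 0.39 for Pcgf1. The same held for 10685 of the 16251 tested genes. A difference inside these bounds is not shown to be absent.

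**Figure D1:**
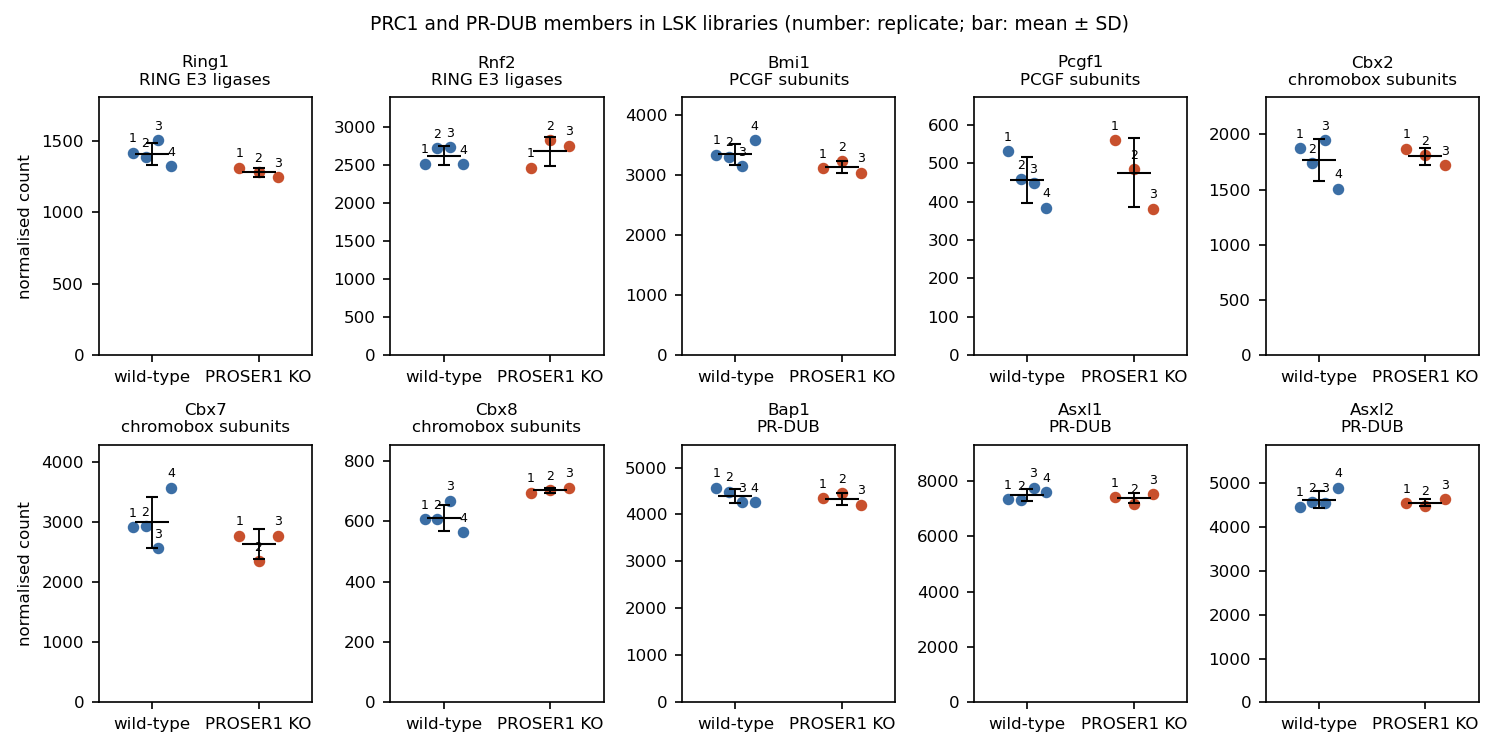
Normalised count (vertical axis, from 0) of each of the 10 members in each library, with wild-type in blue and libraries labelled PROSER1 KO in red. Numbers are replicates and bars the mean ± SD; the groups are apart in Ring1 and Cbx8 and overlap in the other 8 panels.

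Ring1 and Rnf2 encode the paralogous RING ligases (RING1A and RING1B) that place ubiquitin on H2A. Ring1 lies on chr17:34020792-34024680, minus strand (GRCm38), and Rnf2 on chr1:151458004-151500955, minus strand. The normalised count of Ring1 was 1415, 1385, 1502 and 1323 in the wild-type libraries and 1311, 1279 and 1244 in the libraries labelled PROSER1 KO. The groups did not overlap in normalised count, but replicate 4 of the wild-type and replicate 1 labelled PROSER1 KO were close to each other. With scaling to the total read pairs of each library instead, as for the per-length levels below, the groups overlapped. Mean normalised counts were 1406 ± 74.7 (SD, n = 4) and 1278 ± 33.5 (SD, n = 3). It differed by −0.14 in log2 fold change (SE 0.0613, 95% interval −0.28 to 0.001), and limma gave an unadjusted p of 0.0517 and an adjusted p of 0.515. Rnf2, the paralog with the higher level, had normalised counts of 2514, 2720, 2734 and 2506 in the wild-type libraries and 2463, 2821 and 2749 in those labelled PROSER1 KO. Here replicate 1 labelled PROSER1 KO was the lowest and replicate 2 of that group the highest of all 7, so the groups overlapped along their whole range. The log2 fold change of 0.031 (95% interval −0.11 to 0.17, adjusted p = 0.920 in limma) became −0.008 without replicate 2 labelled PROSER1 KO.

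The Ring1 promoter is shown because Ring1 is one of the members whose groups were apart in normalised count. The study also concerns enzymes that act on methylated CG dinucleotides. RefSeq sequences (GRCm38.p6) of 250 bases before to 50 bases after the start were found for 8 of the 10 members. In the Ring1 window, chr17:34024631-34024930 on the minus strand, capitals mark each CG (the letters CG read the same on both strands).
Ring1: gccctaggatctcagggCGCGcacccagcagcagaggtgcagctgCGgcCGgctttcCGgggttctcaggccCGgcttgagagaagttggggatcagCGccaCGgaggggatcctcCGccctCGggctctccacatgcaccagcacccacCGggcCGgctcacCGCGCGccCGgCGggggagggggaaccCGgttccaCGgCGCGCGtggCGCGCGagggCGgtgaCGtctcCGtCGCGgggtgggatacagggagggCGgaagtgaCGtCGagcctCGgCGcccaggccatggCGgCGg
It held 37 CG dinucleotides, a number reached by 5.58% of 32851 promoters of this length, whose median was 7. A CG was present in 94.6% of all these promoters. The 8 members had between 13 (Asxl1) and 50 (Bap1) of them, so each lay above the median promoter. Methylation of these windows in LSK cells was not analysed here.

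Bmi1 encodes a PCGF subunit found in canonical PRC1, and Pcgf1 one of a variant PRC1. Bmi1 lies on chr2:18677018-18686629, plus strand, and Pcgf1 on chr6:83077869-83080855, plus strand. The wild-type libraries had Bmi1 normalised counts of 3339, 3309, 3147 and 3579, and the libraries labelled PROSER1 KO had 3113, 3236 and 3042. Wild-type replicate 4 was the highest, and the overlap came from wild-type replicate 3, which lay below replicate 2 labelled PROSER1 KO. The log2 fold change was −0.094 (SE 0.0543, 95% interval −0.22 to 0.028), with an adjusted p of 0.614 in limma. For Pcgf1, normalised counts were 532, 459, 448 and 385 in the wild-type libraries and 560, 485 and 382 in those labelled PROSER1 KO. Pcgf1 varied most between libraries of a group among the members, with an SD of 0.23 on the log2 scale, and the libraries labelled PROSER1 KO held both its highest and its lowest value. Its log2 fold change of 0.053 (95% interval −0.28 to 0.39, adjusted p = 0.944 in limma) became −0.025 without wild-type replicate 4 and −0.073 without replicate 1 labelled PROSER1 KO.

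The chromobox subunits read methylated histone H3 and bring canonical PRC1 to it. Cbx2 (chr11:119022962-119031270, plus strand) and Cbx8 (chr11:119036305-119040969, minus strand) are neighbours, 5034 bases apart with 0 annotated genes between them. Cbx7 lies elsewhere, on chr15:79915807-79971119, minus strand. Cbx8 had normalised counts of 608, 606, 668 and 565 in the wild-type libraries and 695, 702 and 711 in the libraries labelled PROSER1 KO. The latter were close together and all above the highest wild-type library, replicate 3. Mean levels were 612 ± 42.5 (SD, n = 4) and 703 ± 8.34 (SD, n = 3), a fold of 1.15. The log2 fold change of 0.20 (SE 0.0791, 95% interval 0.025 to 0.38) had an unadjusted p of 0.0294 and an adjusted p of 0.442 in limma, and was not called.

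The Cbx8 promoter is given for comparison with that of Ring1, since Cbx8 is the other member whose groups were apart in normalised count. The window is chr11:119040864-119041163, minus strand, from RefSeq (GRCm38.p6), with each CG in capitals.
Cbx8: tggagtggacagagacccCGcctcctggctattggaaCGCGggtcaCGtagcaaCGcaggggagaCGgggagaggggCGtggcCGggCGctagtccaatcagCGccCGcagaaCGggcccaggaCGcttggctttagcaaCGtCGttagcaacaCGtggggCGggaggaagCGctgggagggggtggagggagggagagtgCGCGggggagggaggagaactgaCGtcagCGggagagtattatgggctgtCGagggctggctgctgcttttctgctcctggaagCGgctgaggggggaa
It held 24 CG dinucleotides, a number reached by 20% of all promoters. The GC content was 66.0%, beside 74.0% in the Ring1 window.

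Its neighbour Cbx2 had normalised counts of 1875, 1736, 1945 and 1507 in the wild-type libraries and 1870, 1813 and 1720 in those labelled PROSER1 KO. The libraries labelled PROSER1 KO fell inside the wild-type range, which wild-type replicate 4 extended downward. The log2 fold change of Cbx2 was 0.034 (95% interval −0.16 to 0.23, adjusted p = 0.936 in limma) with all libraries and −0.039 without wild-type replicate 4. Cbx7 had normalised counts of 2912, 2932, 2565 and 3575 in the wild-type libraries and 2777, 2354 and 2777 in the libraries labelled PROSER1 KO. Wild-type replicate 4 was by far the highest and replicate 2 labelled PROSER1 KO the lowest, and the other 5 lay between 2565 and 2932. Its log2 fold change of −0.18 (SE 0.107, 95% interval −0.42 to 0.061, adjusted p = 0.625 in limma) was the lowest among the members, and was −0.090 without wild-type replicate 4.

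The members were then set beside the plasma cell marker level described above, which differed between libraries of a group. This relation was looked for after the values had been seen, over the 10 members and the summed level of the 8 plasma cell markers, both on the log2 scale, in all 7 libraries. Cbx7 was high where the plasma cell sum was high, with a Pearson r of 0.88 (exact permutation p = 0.0143) and a Spearman rho of 0.71 (exact permutation p = 0.0881). Cbx2 was low where the sum was high, with an r of −0.84 (exact permutation p = 0.0206) and a rho of −0.75 (exact permutation p = 0.0663). Asxl2 had an r of 0.74 (exact permutation p = 0.0633) and a rho of 0.54 (p = 0.236), Bmi1 0.63 (exact permutation p = 0.126) and 0.36 (p = 0.444), Cbx8 −0.63 (p = 0.127) and −0.32 (p = 0.498), and Ring1 −0.37 (p = 0.421) and −0.29 (p = 0.556). For Rnf2, Pcgf1, Bap1 and Asxl1, r was −0.50, −0.49, −0.14 and 0.087, with an exact permutation p of 0.255 or more, and rho −0.32, −0.43, −0.29 and 0.14 (p of 0.354 or more). After Benjamini-Hochberg adjustment over the 10 relations, the lowest p was 0.103 for r (Cbx7 and Cbx2) and 0.441 for rho, and none passed 0.05. Without the 2 libraries farthest from the median sum, wild-type replicates 3 and 4, r was 0.68 for Cbx7, −0.22 for Cbx2, 0.35 for Asxl2, −0.081 for Bmi1, −0.31 for Cbx8, 0.20 for Ring1, −0.20 for Rnf2, −0.41 for Pcgf1, −0.16 for Bap1 and 0.69 for Asxl1. The relation of Cbx2 thus rested on those libraries, and 0.68 for Cbx7 was no higher than the r of Asxl1, which was near 0 over all 7. As an alternative chosen after seeing the data, the mean of each group was removed and libraries were permuted within groups. In the order Ring1, Rnf2, Bmi1, Pcgf1, Cbx2, Cbx7, Cbx8, Bap1, Asxl1 and Asxl2, r was then −0.89, −0.47, 0.65, −0.47, −0.84, 0.91, −0.83, −0.20, 0.012 and 0.72 (exact permutation p = 0.0486, 0.285, 0.174, 0.299, 0.0833, 0.0556, 0.139, 0.729, 0.972 and 0.167). A rank correlation was also taken, as the Pearson r of the ranks of these centred values, with the ranks centred again within groups. It is not the Spearman rho given above. In that order it was −0.71, −0.71, 0.43, −0.32, −0.69, 0.83, −0.54, −0.43, 0.14 and 0.61 (exact permutation p = 0.181, 0.0972, 0.528, 0.514, 0.194, 0.0694, 0.319, 0.528, 0.889 and 0.236). Over all 20 relations of both kinds, the lowest adjusted p was 0.206 for r and 0.486 for rho and this rank correlation together. The 144 permutations within groups allow no p under 0.00694, so 1 related member alone could not have reached an adjusted p of 0.05. Without wild-type replicates 3 and 4, again the farthest, these r were, in the same order, −0.44, −0.13, −0.76, −0.51, −0.25, 0.62, 0.68, −0.58, 0.69 and 0.41, with a changed sign for Bmi1 and Cbx8. The part of plasma cell transcripts in the differences of these genes was not tested.

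**Figure D2:**
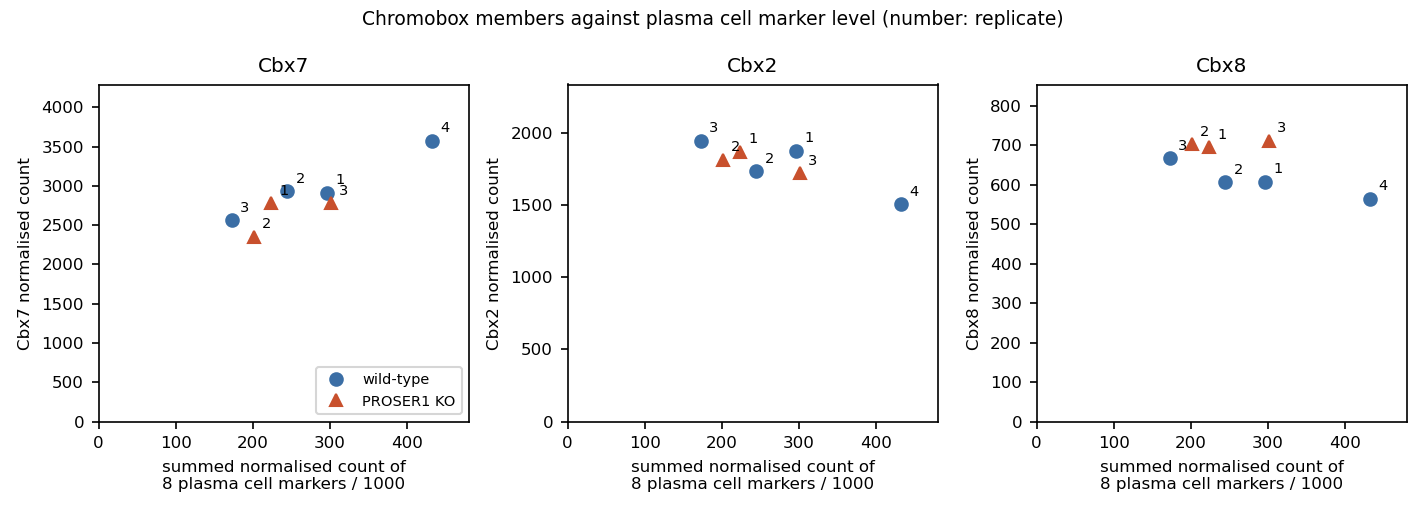
Normalised counts of Cbx7, Cbx2 and Cbx8 (vertical axes, from 0) against the summed normalised count of 8 plasma cell markers divided by 1000 (horizontal axis), 1 point per library, with replicate numbers. Wild-type replicate 4 has the highest sum, 432100, together with the highest Cbx7 (3575) and the lowest Cbx2 (1507) and Cbx8 (565).

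Bap1, Asxl1 and Asxl2 encode the protease of PR-DUB and the ASXL proteins that activate it. Bap1 lies on chr14:31251450-31259944, Asxl1 on chr2:153345829-153404007 and Asxl2 on chr12:3426857-3506852, all on the plus strand. Normalised counts of Bap1 were 4572, 4485, 4264 and 4264 in the wild-type libraries and 4345, 4458 and 4207 in those labelled PROSER1 KO. Replicate 3 labelled PROSER1 KO was the lowest, close to wild-type replicates 3 and 4. Bap1 had a log2 fold change of −0.019 (95% interval −0.12 to 0.086, adjusted p = 0.935 in limma), and 0.002 without that library. Asxl1 had normalised counts of 7338, 7291, 7749 and 7590 in the wild-type libraries and 7411, 7175 and 7517 in the libraries labelled PROSER1 KO. It had the lowest spread of the members, an SD of 0.039 on the log2 scale within groups, and its groups overlapped widely. Asxl1 had a log2 fold change of −0.024 (95% interval −0.12 to 0.072, adjusted p = 0.906 in limma). For Asxl2, the wild-type libraries gave 4465, 4568, 4553 and 4898 and the libraries labelled PROSER1 KO gave 4540, 4483 and 4637. Wild-type replicate 4 was again the highest, and the other 6 libraries lay between 4465 and 4637. Asxl2 had a log2 fold change of −0.020 (95% interval −0.125 to 0.084, adjusted p = 0.930 in limma), which was 0.008 without wild-type replicate 4. These 3 PR-DUB genes had the 3 lowest within-group SDs among the members, and the lowest bound of their intervals was −0.125 on the log2 scale. Asxl3, the third ASXL gene, was at 0 in all 7 libraries.

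Single libraries stood out in several members. Wild-type replicate 4 was the highest library for Bmi1, Cbx7 and Asxl2 and the lowest for Cbx2 and Cbx8, whereas wild-type replicate 2 was neither highest nor lowest for any member. Replicate 3 labelled PROSER1 KO was the lowest library for Ring1, Bmi1, Pcgf1 and Bap1 and the highest for Cbx8. Exons of 4 members share bases with a gene on the opposite strand in GENCODE M21, and whether the authors' counting used strand is not given in the sources used here. The shared stretch was 158 bases for Rnf2 (with Trmt1l), 100 for Cbx7 (with Apobec3), 197 for Asxl1 and 155 for Asxl2, at most 3.83% of the exon bases of a member. The library kit kept strand, and only if counting ignored it would reads of these stretches be open to either partner.

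To compare genes with each other, read pairs were divided by the kilobases of merged exons (GENCODE M21) and scaled to 1000000 read pairs on genes per library. On this per-length scale Asxl1 was the highest member, with a mean of 25.7 over the 7 libraries (range 25 to 27.3). Bap1 followed at 24.0, Bmi1 at 21 and Rnf2 at 16.5. Each of these was above the next in 7 of 7 libraries, although Asxl1 and Bap1 came as close as 0.014 on the log2 scale. Cbx7 (11.2), Cbx2 (10.8) and Ring1 (10.7) were next and exchanged places between libraries, since Cbx7 exceeded Cbx2 in 4 of 7 libraries and Cbx2 exceeded Ring1 in 4 of 7. Asxl2 (7.39) and Pcgf1 (7.24) also changed order, with Asxl2 above in 4 of 7. Cbx8 was the lowest member, at 4.55 (range 3.77 to 5.0). On this scale the groups of Ring1 overlapped, since wild-type replicate 4 (10.01) lay below replicates 1 and 2 labelled PROSER1 KO (10.44 and 10.32). Those of Cbx8 stayed apart, with 4.77 in the highest wild-type library and 4.88 in the lowest labelled PROSER1 KO. The whole set thus spanned less than a factor of 10 between its most and its least abundant transcript.

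**Figure D3:**
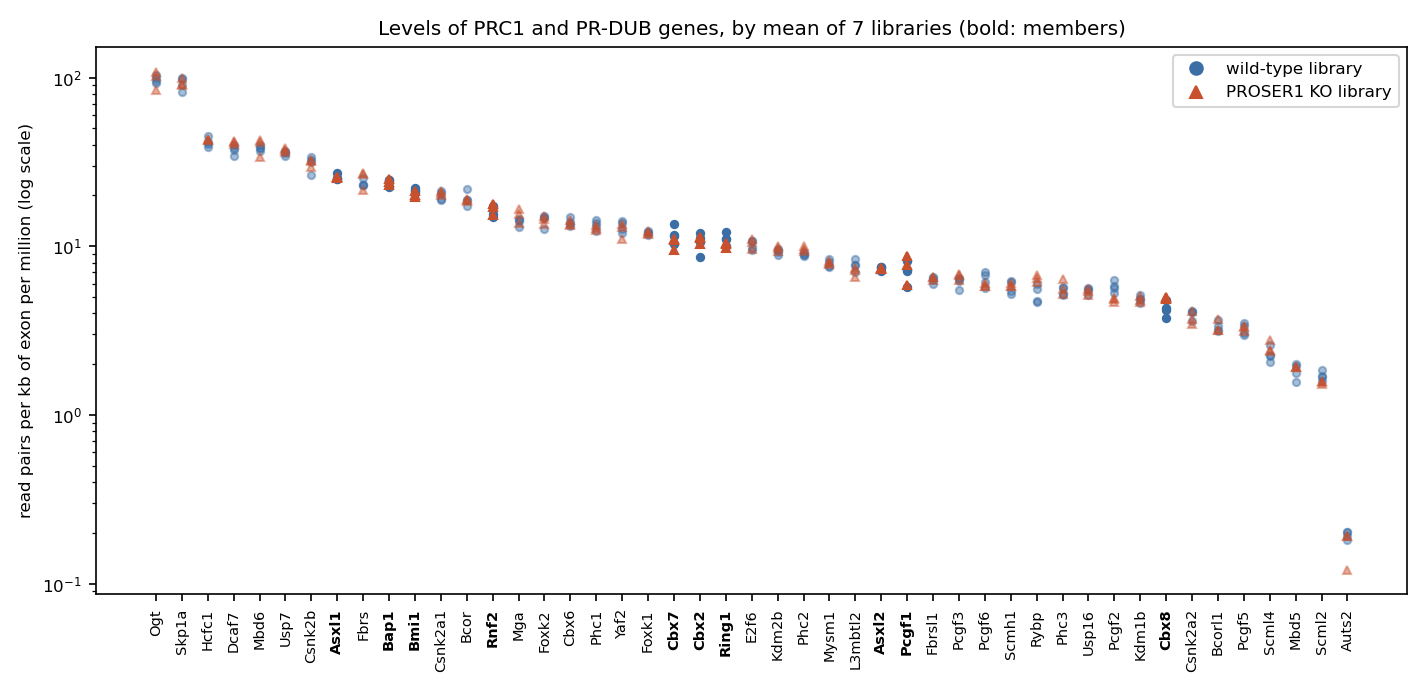
Levels in read pairs per kilobase of exon at a library total of 1000000 (log axis) of the members (bold) and of 37 other PRC1 and PR-DUB genes above 0, ordered by the mean of 7 libraries; circles are wild-type libraries and triangles libraries labelled PROSER1 KO. Asxl1 and Bap1 lead the members at 25.7 and 24.0, and Cbx8 is lowest at 4.55.

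Ratios of paralogs and partners within a library remove differences in depth, but they still depend on the merged exon lengths used. Bmi1 exceeded Pcgf1 per length in every library, with a log2 ratio of 1.61 ± 0.24 (SD, n = 4) in the wild-type group and 1.47 ± 0.26 (SD, n = 3) in that labelled PROSER1 KO. Pcgf2, which encodes the paralog of BMI1 in canonical PRC1, was lower still per length. The log2 ratio of Bmi1 to Pcgf2 was 1.91 ± 0.12 (SD, n = 4) and 2.08 ± 0.10 (SD, n = 3). The order of Pcgf1 and Pcgf2 came from their exon lengths of 1649 and 3526 bases. In normalised count Pcgf2 (626 to 852) was above Pcgf1 (382 to 560). Ring1 was below Rnf2 in every library, at −0.55 ± 0.064 (SD, n = 4) and −0.72 ± 0.14 (SD, n = 3), and replicate 1 labelled PROSER1 KO (−0.56) lay inside the wild-type range. Bmi1 thus stood above Pcgf1 and Pcgf2, and Rnf2 above Ring1, in all 7 libraries.

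Among chromobox pairs, the log2 ratio of Cbx7 to Cbx8 was 1.44, 1.46, 1.12 and 1.84 in the wild-type libraries and 1.18, 0.92 and 1.15 in those labelled PROSER1 KO. Wild-type replicate 3 lay among the latter, and the difference of the group means, −0.38, was −0.26 without wild-type replicate 4. The log2 ratio of Cbx2 to Cbx8 averaged 1.31 ± 0.086 (SD, n = 4) and 1.15 ± 0.078 (SD, n = 3), overlapping at wild-type replicate 4 (1.2) and replicate 1 labelled PROSER1 KO (1.22). Asxl1 exceeded Asxl2 by a log2 ratio of 1.80 ± 0.058 (SD, n = 4) and 1.79 ± 0.014 (SD, n = 3). The log2 ratio of Asxl1 to Bap1 was 0.10 ± 0.091 (SD, n = 4) and 0.096 ± 0.076 (SD, n = 3), near parity in each group. The groups overlapped in all 7 ratios, for which no test was made.

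**Figure D4:**
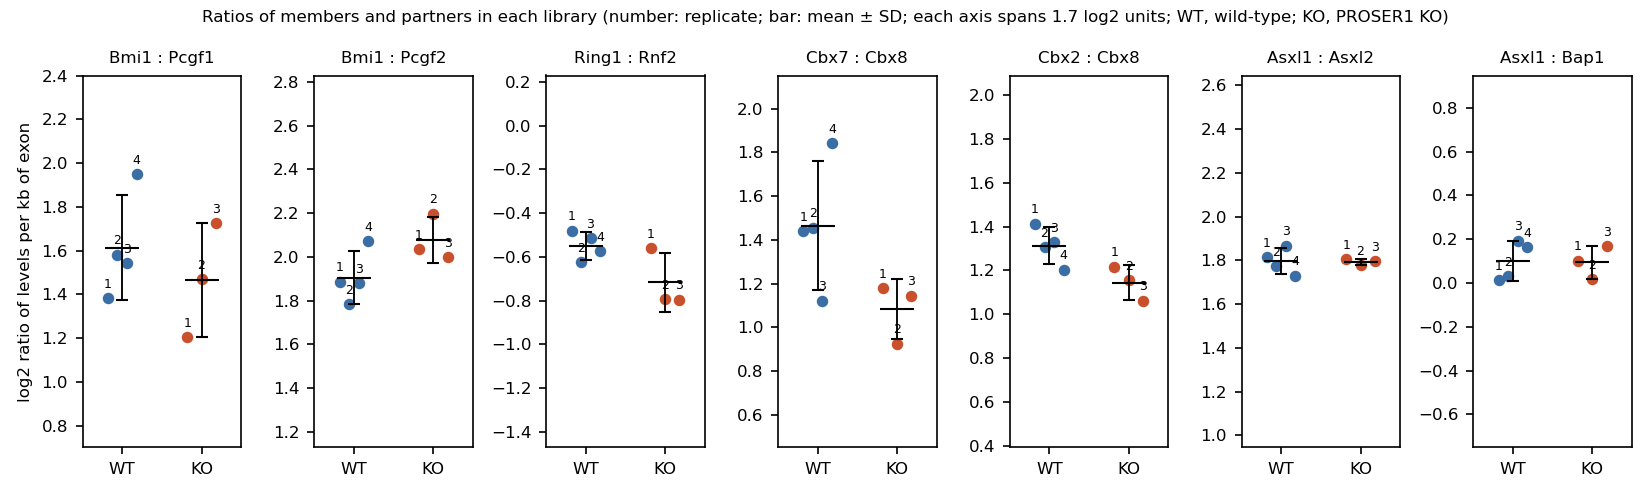
Log2 ratios of levels per kilobase of exon for 7 pairs of genes (vertical axes, each spanning the same number of log2 units) in each library, with replicate numbers and mean ± SD. The groups overlap in every pair; the difference of the means is farthest from 0 for Cbx7 to Cbx8 (−0.38) and closest for Asxl1 to Asxl2 (−0.004).

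The remaining subunits and partners of both complexes were given by a list of 39 genes, of which 38 were tested and Asxl3 was the exception. None was called by limma, edgeR or DESeq2, and 4 of the 38 had an unadjusted limma p under 0.05, beside 9.73% of all tested genes. Their median log2 fold change was 0.0003, beside 0.0015 over all tested genes, with 19 of the 38 above 0 and 19 below. In 6 of the 38 the groups did not overlap, beside 10% of all tested genes, with the libraries labelled PROSER1 KO above in 3 and below in 3. The intervals of 37 lay inside a 1.5-fold change, the exception being Auts2 (−0.68 to 0.17).

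The lowest p belonged to Pcgf2, with normalised counts of 801, 852, 759 and 756 in the wild-type libraries and 674, 626 and 675 in the libraries labelled PROSER1 KO. All 3 of the latter were lower, with a log2 fold change of −0.27 (95% interval −0.43 to −0.096, unadjusted p = 0.00609, adjusted p = 0.271 in limma). Rybp, whose protein defines variant PRC1 by taking the place of a CBX subunit, had counts of 873, 1021, 1086 and 919 against 1121, 1228 and 1205. All 3 libraries labelled PROSER1 KO were higher, with a log2 fold change of 0.29 (95% interval 0.092 to 0.48, unadjusted p = 0.00846, adjusted p = 0.309 in limma). Dcaf7, a subunit of variant complexes, had a log2 fold change of 0.13 (unadjusted p = 0.0221, adjusted p = 0.407 in limma). L3mbtl2, a subunit of the PCGF6 complex, had a log2 fold change of −0.15 (unadjusted p = 0.0392, adjusted p = 0.473 in limma). These 4 were the genes of lowest p and, like the members, none passed the adjusted threshold. Per length, Ogt (98.0), Skp1a (92.9), Hcfc1 (42.1) and Dcaf7 (39.1) were the most abundant, each above Asxl1. OGT and HCFC1 bind BAP1 and have functions outside PR-DUB, as SKP1 has outside variant PRC1.

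**Figure D5:**
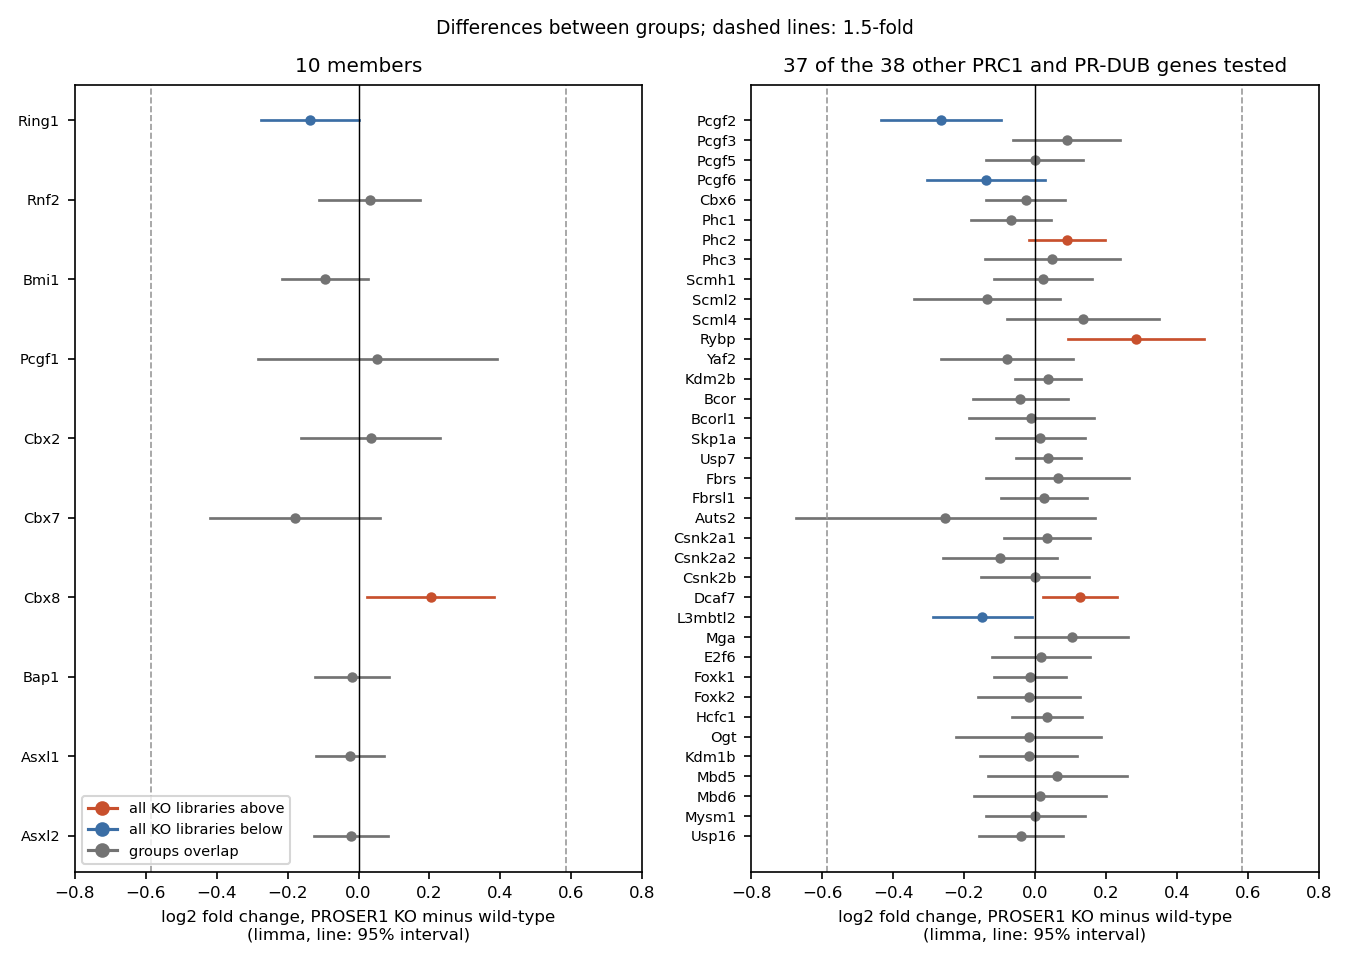
Log2 fold change of the libraries labelled PROSER1 KO against wild-type with its 95% limma interval (horizontal axis) for the 10 members and 37 of the 38 other genes tested; dashed lines mark a 1.5-fold change. Red and blue genes are those whose groups do not overlap, and among the genes shown the interval of Auts2 alone crosses a dashed line.

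Genes that PRC1 is known to hold silent were listed as target readouts, although whether they report the activity of the complexes was not tested. Of 31 such genes, 27 had a mean below 10 and were not tested, and 13 of them, including 6 of 9 Hoxd genes, were at 0 in all 7 libraries. Cdkn2a, the INK4 gene repressed by BMI1, had normalised counts of 5.77, 7.21, 2.30 and 16.2 in the wild-type libraries and 13.6, 17.8 and 14.4 in those labelled PROSER1 KO. These stand for 2 to 21 read pairs per library, wild-type replicate 4 lay among the libraries labelled PROSER1 KO, and the log2 fold change of 1.11 had an interval of −0.20 to 2.41 and an adjusted p of 0.579 in limma. It was 1.51 without wild-type replicate 4 (adjusted p = 0.431 in limma) and 0.71 without wild-type replicate 3 (adjusted p = 0.688), and without replicate 2 labelled PROSER1 KO the mean was too low for the test. Cdkn2b, its neighbour, had normalised counts of 5.77, 10.8, 4.6 and 15.1 against 11.5, 7.62 and 2.88, with overlapping groups and a mean too low for the test.

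The B-lineage factors were the most abundant of these genes. Ebf1 had normalised counts of 258, 156, 126 and 175 in the wild-type libraries and 494, 199 and 250 in the libraries labelled PROSER1 KO. Replicate 1 labelled PROSER1 KO was the highest, while wild-type replicate 1 lay above the other 2 of that group (log2 fold change 0.75, 95% interval 0.021 to 1.47, adjusted p = 0.494 in limma). Pax5, which was also among the B cell markers summed above, had counts of 142, 82.9, 70.1 and 55.6 against 302, 86.3 and 170. The same library was again far above the rest (log2 fold change 0.99, 95% interval 0.025 to 1.95, adjusted p = 0.497 in limma). That library also had the highest T cell marker sum, 796, with 197 for Cd3e against 5.75 to 24.0 in the other 6. Without it, the log2 fold change was 0.36 for Ebf1 (adjusted p = 0.716 in limma) and 0.55 for Pax5 (adjusted p = 0.716). The part of lymphoid transcripts in these values was not tested. Eomes, the next in level, had normalised counts of 92.3, 47.8, 49.4 and 51.0 in the wild-type libraries and 82.4, 36.4 and 68.2 in those labelled PROSER1 KO. None of the 4 tested readouts was called by limma, edgeR or DESeq2, and 2 had an unadjusted limma p under 0.05, beside 9.73% of all tested genes.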

How the data were processed

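RNA of LSK cells was measured in 7 libraries, grouped by their labels. Before they deposited the table, the authors ran Trimmomatic, STAR (mm10) and featureCounts and divided each library's read pairs by a DESeq2 size factor, so each value is a normalised signal. Whole read pairs were recovered from the step of each library (100% of values whole within 0.01 read pair). Groups were compared with limma 3.58.1 (R 4.3.3; lmFit, eBayes with trend) on log2(normalised count + 1) over 16251 genes whose mean was 10 or higher, with Benjamini-Hochberg adjustment over all of them. A log2 fold change on this scale understates changes of low genes. edgeR 4.0.16 (called 40 genes) and DESeq2 1.42.0 (165) on recovered read pairs were alternatives, and limma called 42. The fits were tested on simulated data. The methods name GENCODE M25 and the ID column of the table M10, so the release counted on is unclear; positions and exon lengths here are from M21 by Ensembl ID (81 of 81 listed genes matched). Genes such as Mecom, Asxl3, Auts2, Cbx6 and Cd3e were named for the feature given beside them. The named genes otherwise included all members, the 4 other complex genes of lowest p and the 4 highest per length, set targets and leading markers. Phc2 and Pcgf6, also without overlap, were counted only, and 1 listed gene is not reported here by name or shown. The members and lists were chosen with earlier results of these data known.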

Additional observations from a re-analysis of the deposited data

Results flagged for a closer look

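In 77 values or sums checked in the wild-type group, 2 had a library far from the other 3. Cbx6, a chromobox gene, had normalised counts of 5632, 6076, 5614 and 5675, so that replicate 2 lay apart by a gap of 0.868 of the whole range. Eomes had 92.3 in replicate 1 against 47.8 to 51.0, a gap of 0.927 of the range. No member was among them. Chance gives such a gap in about 1 in 20 groups, and groups of 3 libraries were not checked in this way.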

How the results depend on the processing

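The count of 0 called members was the same under all alternatives run, as were the counts of 0 for the other complex genes and for the targets. Over all genes, 42 calls became 165 with DESeq2 and 17 without the mean-variance trend, and 23 to 42 with a library left out, the lowest without replicate 2 labelled PROSER1 KO. The causes were not tested. Of 160 log2 fold changes of members under 16 alternatives each, 151 kept their sign, and 5 members never changed it. The changes of filter and the fit without the trend could not move these values, and the replicate block repeated those without wild-type replicate 4. All changed signs came from a library left out or from the block, so the count of kept signs is no measure of stability. With a library left out, the ranges that cross 0 were −0.008 to 0.09 for Rnf2, −0.073 to 0.202 for Pcgf1, −0.039 to 0.083 for Cbx2, −0.039 to 0.002 for Bap1 and −0.037 to 0.008 for Asxl2. Ring1 ran from −0.166 to −0.104 and Cbx8 from 0.166 to 0.246 over all alternatives, with adjusted p-values of 0.453 to 0.710 and 0.355 to 0.654. Bmi1 ran from −0.122 to −0.061, Cbx7 from −0.25 to −0.09 and Asxl1 from −0.039 to −0.005. The differences of the ratios were recomputed with each library left out, a choice made after seeing the data, and moved by less than 1 pooled within-group SD. That of Bmi1 to Pcgf1 fell from −0.147 to −0.017 without replicate 1 labelled PROSER1 KO, and those of Asxl1 to Asxl2 (−0.025 to 0.02) and to Bap1 (−0.041 to 0.034) changed sign. With the group means removed, also chosen after seeing the data, the r of Ring1 with the plasma cell sum moved from −0.37 to −0.89.

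With the replicate number as a block, which leaves wild-type replicate 4 out of the difference, 35 genes and 0 members were called, and the log2 fold change was −0.025 for Pcgf1, −0.039 for Cbx2 and 0.008 for Asxl2. Same-numbered libraries did not deviate together (correlations of 0.0226, 0.0575 and −0.106), so the numbers were not taken as pairs. Of the 31 target readouts, 27 had a mean below 10 and 20 were at 3 or fewer read pairs in all 7 libraries, so a difference in these 20 was not detectable at this depth. Whether the genes were silent was not tested.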
